A study of Homo sapiens with 8 samples.

Results

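Among the miRNAs measured in INA-6 cells were those whose genes lie on genes of box H/ACA small nucleolar RNAs (snoRNAs). Every human entry of the array named for any arm of miR-664a, miR-664b, miR-1248, miR-1291 or miR-3651 was taken, which gave 7 of the 2549 human miRNAs on the array. INA-6 is an established human multiple myeloma (MM) cell line that grows in the presence of interleukin-6. RNA of 4 samples given DMSO, the solvent, and of 4 samples given 1 μM of UNC1999, a compound that blocks the histone methyltransferase EZH2, was hybridized to 8 single-colour arrays on 1 slide, all after 5 days, with medium and reagents renewed at 72 hours. The titles name DMSO as the control, whereas the treatment protocol in the labels names 1 μM of the inactive compound UNC2400, and the samples were taken as DMSO controls. Every array therefore came from a single cell line at a single dose and time, and no untreated cells were included.

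H/ACA snoRNAs are short RNAs of the nucleolus, mostly cut from introns, that guide the conversion of uridine to pseudouridine in ribosomal and small nuclear RNAs. Each folds into a pair of hairpins, the first followed by the H box and the second by the ACA box, which lies just before the 3′ end, and is bound by the enzyme dyskerin and its partner proteins. Some of them are also cut into fragments the size of a miRNA, a route that is known to use Dicer but not to need the Drosha complex that releases ordinary miRNA hairpins. An array probe reads the end of the mature sequence and gives no account of which precursor or enzyme made it. Whether a full-length snoRNA adds to the signal of an entry at its 3′ end was not tested.

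All 7 mature sequences were matched by name to RefSeq (GRCh38.p14). They are shown because the members differ in where on the snoRNA they lie. Each is written 5′ to 3′ with the seed, bases 2 to 8, in capitals.
miR-3651: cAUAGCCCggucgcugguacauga
miR-664b-3p: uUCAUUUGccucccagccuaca
miR-664b-5p: uGGGCUAAgggagaugauugggua
miR-664a-3p: uAUUCAUUuauccccagccuaca
miR-664a-5p: aCUGGCUAgggaaaaugauuggau
miR-1248: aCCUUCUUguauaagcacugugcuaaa
miR-1291: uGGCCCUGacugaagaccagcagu

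No seed was shared between members. Outside them the seed of miR-664b-3p was that of miR-579-3p, the seed of miR-664a-5p that of miR-4794 and the seed of miR-1291 that of miR-6775-3p. MIR3651 lay on SNORA84 within the span of IARS1, the gene of a tRNA synthetase, with the mature sequence on the minus strand at chr9:92292461-92292484. MIR664B lay on SNORA36A within DKC1, the gene of dyskerin itself, with its 3p arm on the plus strand at chrX:154768635-154768656 and its 5p arm at chrX:154768596-154768619. MIR664A lay on SNORA36B within RAB3GAP2 on the minus strand, with its 3p arm at chr1:220200549-220200571 and its 5p arm at chr1:220200586-220200609. MIR1248 lay on SNORA81 within EIF4A2, the gene of a translation initiation helicase, at chr3:186786675-186786701 on the plus strand, and MIR1291 on SNORA2C, also known as SNORA34, within KANSL2 at chr12:48654494-48654517 on the minus strand. These positions are those of RefSeq, whose gene table gives no strand for the snoRNAs and no exons, whereas the scanner files name hg19 as their build and hold no positions. Of the 1913 miRNA genes in that table, 8 (0.418%) overlapped a snoRNA or small Cajal body RNA gene, read without strand, and 5 of these were the members' genes.

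The members took different parts of the snoRNA. miR-3651 ended on the last base of SNORA84, and the 3p arms of miR-664a and miR-664b each ended 3 bases before the 3′ end of their snoRNA gene. In capitals, the letters ACA stood in these 3 sequences as follows.
miR-3651: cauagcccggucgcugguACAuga
miR-664b-3p: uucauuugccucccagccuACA
miR-664a-3p: uauucauuuauccccagccuACA
In each case 3 bases lay between ACA and the end of the snoRNA gene. Read on the RNA strand, 1.39% of the 2370 human mature miRNAs in the table ended in ACA and 1.22% had ACA followed by 3 further bases, 2 members and 1 member among them. The 5p arms of miR-664a and miR-664b lay inside the snoRNA, each ending 40 bases before its 3′ end. miR-1248 and miR-1291 came from the opposite end, miR-1291 starting 1 base inside the 5′ end of its snoRNA gene and miR-1248 starting 1 base before it.

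**Figure D1:**
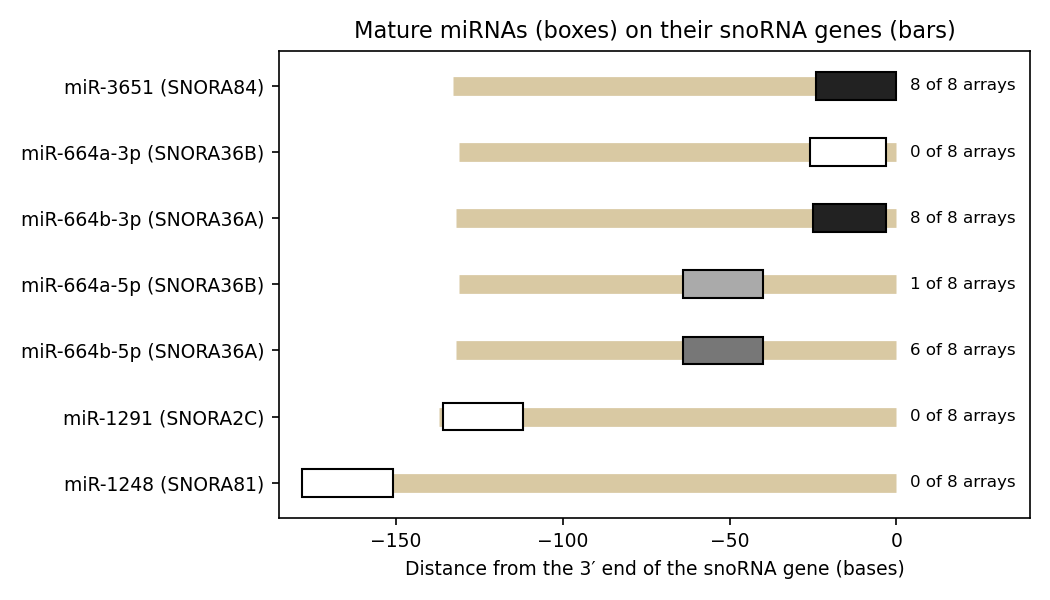
Each bar is a snoRNA gene drawn to scale and aligned on its 3′ end, the horizontal axis is the distance from that end in bases, and each box is the mature miRNA, darker where it was detected on more arrays. The entries detected on 8 of 8 arrays, miR-3651 and miR-664b-3p, lie at the 3′ end, as does miR-664a-3p, detected on 0, while miR-1248 and miR-1291, at the 5′ end, were also detected on 0.

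As a check of the arrays, 3 of 5 blood lineage miRNAs were detected on all 8, miR-142-3p, miR-142-5p and miR-150-5p, while miR-155-5p was detected on 2 and miR-146a-5p on 0. Of 8 miRNAs typical of liver, muscle, nerve, epithelium or red cells, 7 were detected on 0 arrays and miR-9-5p on 8. Between 369 and 484 human miRNAs were detected on a DMSO array and between 474 and 500 on a UNC1999 array. The DMSO arrays of replicates 2 and 3 stood apart with 369 and 370. Before scaling, the 75th percentile of the signal was also lower on these, 349 and 296, against 474 and 559 on the other DMSO arrays and 534 to 729 on the UNC1999 arrays. The arrays of each group were most alike in pairs, DMSO replicates 1 and 4, DMSO replicates 2 and 3, UNC1999 replicates 1 and 3, and UNC1999 replicates 2 and 4. The titles call the samples biological replicates, the paper describes 4 independent biological experiments, and each array was counted as a sample. The labels do not say why the arrays were alike in pairs. The P-values measure the spread between arrays, which may in part be technical.

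Signals are given per miRNA as the sum of its probes on the scaled arrays, in array intensity units, and were compared between the groups on the log2 scale with limma. P-values were adjusted after Benjamini and Hochberg over the 456 miRNAs that either group showed as detected on each of its 4 arrays. To be called, a miRNA needed an adjusted P-value no higher than 0.05 together with a change of 1.2-fold or more. Each member was read by 2 probes in 20 spots. Of the 7 members, miR-3651 and miR-664b-3p were detected on all 8 arrays, miR-664b-5p on 2 DMSO and 4 UNC1999 arrays, miR-664a-5p on 1 UNC1999 array, and miR-664a-3p, miR-1248 and miR-1291 on none. Thus 3 members entered the test, miR-664b-5p through its detection in the UNC1999 group alone, and 2 were called, both lower upon UNC1999 treatment. Of all miRNAs tested 70.6% were called, 34.6% as lower and 36% as higher. A call on these arrays was therefore the common outcome and is not particular to the members. The median log2 change of the 3 tested members, which is the value of miR-664b-3p, was -0.63. It was 0.011 over all tested miRNAs and -0.14 over those detected on all 8 arrays. A median of 3 does not show a shift of the members as a group.

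miR-3651, the 3′ end of SNORA84, fell upon UNC1999 treatment on the scaled arrays. Its scaled signal was 888.7, 856.8, 841.1 and 907.3 on the DMSO arrays of replicates 1 to 4. On the UNC1999 arrays it was 519.1, 497.3, 496.9 and 438.9. Every UNC1999 value thus lay well below every DMSO value after scaling, whereas the values before scaling overlapped between the groups. RNA was taken from whole cultures, so fewer cells of a kind and less of the RNA per cell cannot be told apart. Values that do not overlap between the groups were found for 65.4% of the miRNAs tested, and for 32.7% with the UNC1999 values below. On the log2 scale miR-3651 fell from 9.77 ± 0.0495 to 8.93 ± 0.11 (SD, n = 4 each), a log2 change of -0.84 (standard error 0.093, limma adjusted P-value 0.000102) with a 95% interval of -1.05 to -0.635, or 1.79-fold lower. All 20 spots were well above background on each of the 8 arrays. Of the other tested miRNAs 37 had a lower log2 change and 418 a higher one, rises included. Probes 1 and 2 changed by -0.91 and -0.83 on the log2 scale (exact permutation test, two-sided, P-value 0.0286 for each, the smallest that 4 against 4 arrays allow).

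miR-664b-3p, the ACA end of the snoRNA within the dyskerin gene, was also lower. Its scaled signal was 86.06, 76.08, 85.94 and 71.51 on the DMSO arrays and 53.62, 51.09, 49.25 and 51.88 on the UNC1999 arrays, in the order of the replicates. The UNC1999 arrays lay within a few units of each other and all below the DMSO arrays, which were more spread. Before scaling the groups overlapped here too. Scaled UNC1999 values all below the DMSO values were found for 32.7% of the miRNAs tested. Of the other tested miRNAs 83 had a lower log2 change than miR-664b-3p and 372 a higher one. The log2 signal fell from 6.32 ± 0.13 to 5.69 ± 0.0508 (SD, n = 4 each), a change of -0.63 (standard error 0.098, limma adjusted P-value 0.000529) with a 95% interval of -0.849 to -0.413, or 1.55-fold lower. Probe 1 changed by -0.88 and probe 2 by -0.59 (exact permutation test, two-sided, P-value 0.0286 for each). Of its 20 spots between 10 and 12 were well above background on an array, and probe 1, with a mean of 6.49 on the UNC1999 arrays, lay under the floor of 8.98 that was set for a whole miRNA.

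The other arm of the same hairpin, miR-664b-5p, did not pass the test. This arm had entered through its detection on all 4 UNC1999 arrays, a filter that favours a rise. The P-values and calls of miR-664b-5p, here and below, are therefore a description and no support for a rise. Its scaled signal was 29.77, 17.35, 17.79 and 30.77 on the DMSO arrays and 32.6, 29.76, 28.42 and 25.49 on the UNC1999 arrays. The DMSO values formed 2 levels, and the low pair, replicates 2 and 3, were the arrays on which the miRNA was not detected and which had the fewest detected miRNAs in all. The groups overlapped, since DMSO replicates 1 and 4 lay among the UNC1999 values. Its log2 signal was 4.53 ± 0.45 after DMSO and 4.86 ± 0.15 after UNC1999 (SD, n = 4 each), a difference of 0.33 (standard error 0.20, limma adjusted P-value 0.159) with a 95% interval of -0.113 to 0.77. Probe 1 differed by 0.94 (exact permutation test, two-sided, P-value 0.0857) and probe 2 by 0.18 (P-value 0.514 by the same exact test). Without DMSO replicates 2 and 3, a choice made after seeing the data, the difference was -0.064 (limma adjusted P-value 0.632), whereas miR-3651 and miR-664b-3p stood at -0.88 and -0.61 and were still called. With DMSO replicate 4 alone left out miR-664b-5p was called higher, at 0.47 (limma adjusted P-value 0.0466, over its settings 0.00279 to 0.632), and fitting the alike arrays as blocks also gave a call (limma adjusted P-value 0.0431).

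**Figure D2:**
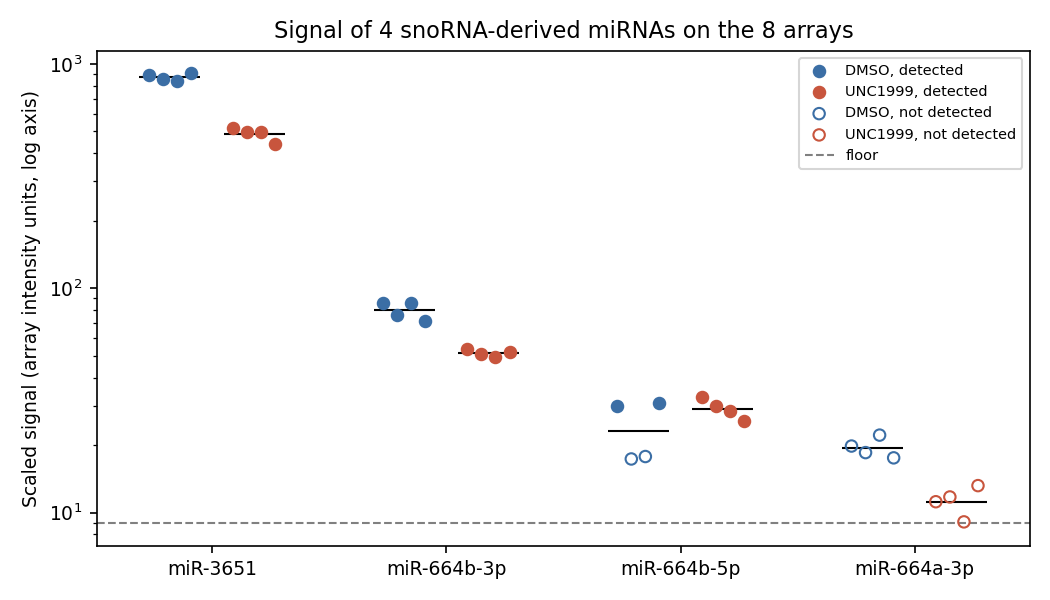
Scaled signal in array intensity units on a log axis for 4 members on the 8 arrays, with filled points where the scanner software marked the miRNA as detected, open points where it did not, a line at each geometric mean (n = 4) and a dashed line at the floor of 8.98. For miR-3651 and miR-664b-3p the 4 UNC1999 points lie below the 4 DMSO points, and for miR-664b-5p the DMSO points of replicates 2 and 3, open, lie below all others.

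The arms of miR-664b were set against each other on the same array, where scaling between arrays has no part. This comparison was chosen after seeing the data, and miR-664b-5p had entered through the UNC1999 group alone, so the ratios are given as a description with no test. The log2 ratio of the 3p arm to the 5p arm was 1.53, 2.13, 2.27 and 1.22 on the DMSO arrays and 0.72, 0.78, 0.79 and 1.03 on the UNC1999 arrays. The highest ratios were those of DMSO replicates 2 and 3, where 0 of the 20 spots of miR-664b-5p were well above background, and the ratios of DMSO replicates 1 and 4 lay closer to the UNC1999 arrays. The mean ratio was 1.79 ± 0.50 after DMSO and 0.83 ± 0.14 after UNC1999 (SD, n = 4 each), a difference of -0.96. The size of the ratio has no meaning of its own, since it sets different probes against each other, and only its change between groups can be read. With normexp background correction the arms changed by -0.47 and -0.35 on the log2 scale, where the median tested miRNA stood at -0.29. That setting adds an offset of 50 before scaling, which draws the changes of dim miRNAs together. It therefore cannot decide whether the arms changed alike. The same ratio for miR-3651 over miR-664b-5p, likewise chosen after seeing the data, was 5.24 ± 0.41 after DMSO and 4.07 ± 0.0595 after UNC1999 (SD, n = 4 each), a difference of -1.17, again with DMSO replicates 2 and 3 the highest, at 5.63 and 5.56 against 4.90 and 4.88 on DMSO replicates 1 and 4.

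Between the members detected on every array there was 1 pair. The log2 ratio of miR-3651 to miR-664b-3p was 3.37, 3.49, 3.29 and 3.67 on the DMSO arrays and 3.28, 3.28, 3.34 and 3.08 on the UNC1999 arrays. These values overlapped, UNC1999 replicate 3 lying above DMSO replicate 3. The means were 3.45 ± 0.16 and 3.24 ± 0.11 (SD, n = 4 each), a difference of -0.21 (exact permutation test, two-sided, P-value 0.0571). The falls of the pair, 0.84 and 0.63 on the log2 scale, were thus not shown to differ in size, nor to be the same.

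**Figure D3:**
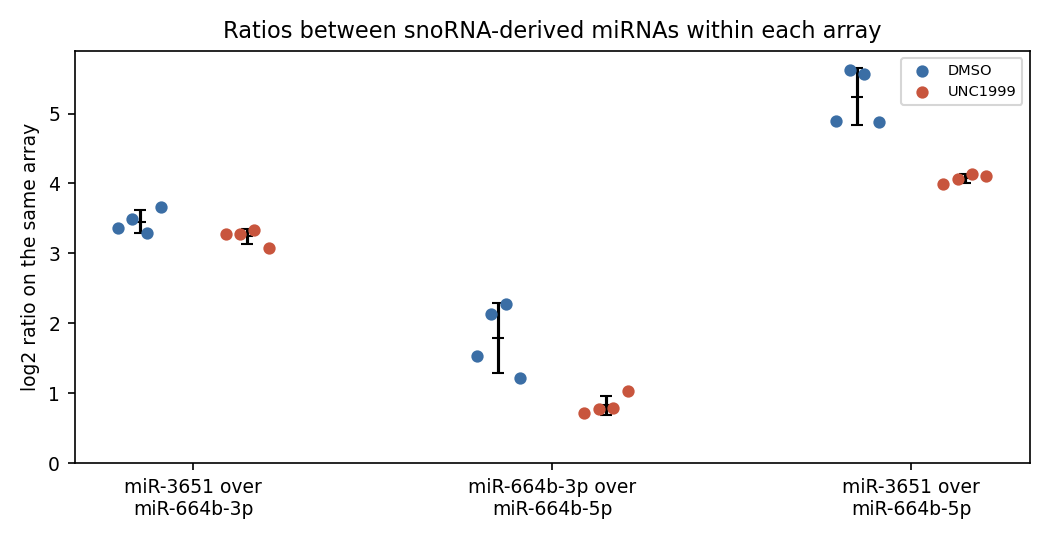
The log2 ratio of one member to another on the same array for 3 pairs, with a point for each array and bars for the mean and SD (n = 4). In the pairs with miR-664b-5p the highest points are DMSO replicates 2 and 3, where that miRNA was not detected, and the ratio of miR-3651 to miR-664b-3p overlaps between the groups, with a difference of -0.21.

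The members of the MIR664A gene gave little signal. miR-664a-3p was not marked as detected on any array, although its signal lay above the floor of 8.98, the lowest level taken as measured, on all 8. Its scaled signal was 19.81, 18.52, 22.16 and 17.55 on the DMSO arrays and 11.19, 11.75, 9.1 and 13.2 on the UNC1999 arrays. After scaling the UNC1999 values were the lower ones, whereas before scaling the values overlapped between the groups. This is given as a description with no test, since the entry did not pass the detection filter. Scaled values that do not overlap were found for 65.4% of the miRNAs tested, and for 32.7% with the UNC1999 values below. Probe 1 had means of 9.43 after DMSO and 5.58 after UNC1999, and probe 2 means of 10.1 and 5.74 (n = 4 each). No fold change is given because the miRNA was below the detection mark in both groups. The 3p arms of miR-664a and miR-664b share their last 11 bases, CCCAGCCUACA, and 79.2% of the aligned positions, and miR-664b-3p was lower on the same UNC1999 arrays. The part of hybridization between these arms in the signal of miR-664a-3p was not tested, since probe sequences were not analysed here. The 5p arms were less alike, with 68% of the aligned positions identical. miR-664a-5p was detected on UNC1999 replicate 1 alone, at a scaled signal of 14.1. Its signal was 11.94, 1.35, 1.35 and 5.97 on the DMSO arrays and 7.25, 6.79 and 4.36 on the other UNC1999 arrays, so that the groups overlapped. On this entry too DMSO replicates 2 and 3 were the lowest.

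**Figure D4:**
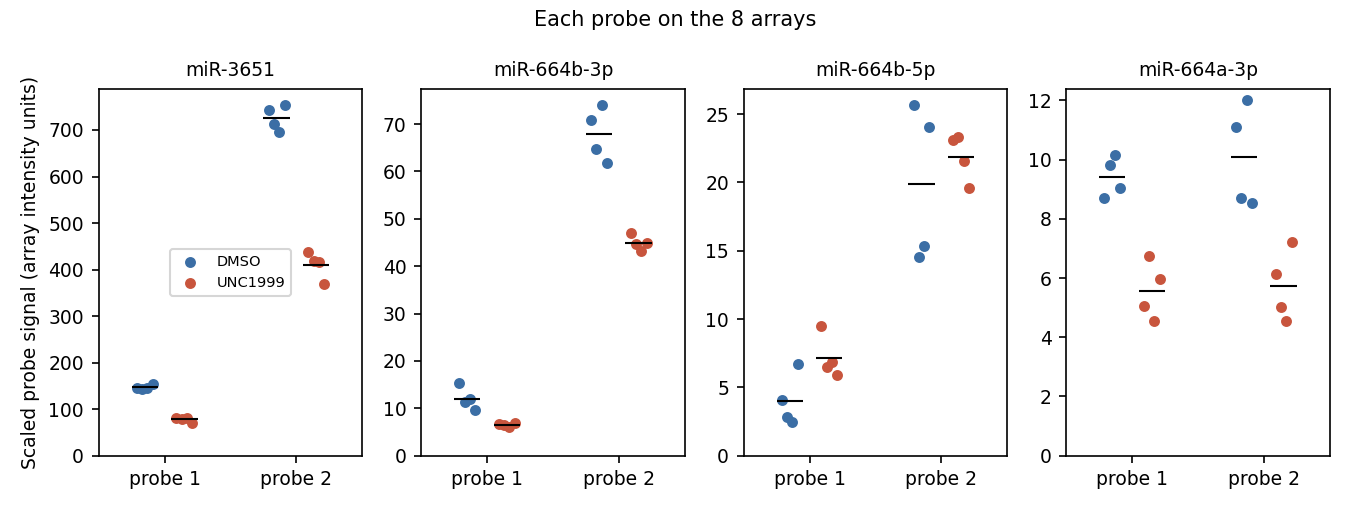
Scaled signal of each of the 2 probes of 4 members in array intensity units, each panel with its own vertical axis from 0, with a point for each array and a line at the mean (n = 4). After scaling, both probes of miR-3651, miR-664b-3p and miR-664a-3p are lower on all UNC1999 arrays. For probe 2 of miR-664b-5p the UNC1999 points, 19.6 to 23.3, lie between the low and the high DMSO points.

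The miRNAs at the 5′ end of their snoRNA gave no measurable signal. For miR-1248 the scaled signal lay between -9.66 and -1.87, below the local background of the array, in every sample. For miR-1291 it lay between -4.39 and 2.56, under the floor on all 8 arrays. A difference between the groups was not detectable for either at this signal, which does not show that the RNA is absent.

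Other entries that lie on such RNAs were weak too. The list held miR-3609 and the arms of miR-6516, whose genes overlap SCARNA28 and SCARNA16 in RefSeq, and by name the arms of miR-3607 and miR-3653, described as fragments of C/D-box snoRNAs, a class that guides ribose methylation. Of these 7 entries 5 were detected on 0 arrays and 0 entered the test. miR-3653-3p was detected on 2 DMSO and 3 UNC1999 arrays. Its scaled signal was 22.86, 14.22, 19.24 and 21.69 after DMSO and 17.74, 16.95, 13.69 and 13.61 after UNC1999, and the groups overlapped. miR-6516-3p was detected on DMSO replicate 4 alone, at 15.46. miR-1843, on SCARNA3, had no human entry of that name on the array.

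The miRNAs with profiles most like those of the members were sought among the 453 other miRNAs tested, by the root mean square difference of log2 signals over the 8 arrays after each profile was centred on its own mean. Nearest to miR-3651 were miR-374b-5p, miR-17-5p and miR-103a-3p, at 0.061, 0.064 and 0.079. Nearest to miR-664b-3p were miR-365a-3p, miR-4428 and miR-1273g-3p, at 0.075, 0.079 and 0.091. All 6 were called lower, miR-17-5p the most, with a log2 change of -0.92, and miR-1273g-3p the least, with -0.51. Since they were picked for profiles like those of members that fell, these calls are no separate result. Of all miRNAs tested 34.6% were called lower.

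The size of the members' changes, and for miR-664b-3p also the sign, rested on how the arrays were scaled. Without scaling between arrays the mean summed intensity of miR-3651 was 713 after DMSO and 630 after UNC1999, that of miR-664b-3p 64.1 and 65.9, and that of miR-664b-5p 20.6 and 37.5 (n = 4 each). In these unscaled values miR-3651 changed by -0.14 (limma adjusted P-value 0.704), miR-664b-3p by 0.067 (limma adjusted P-value 0.86), and miR-664b-5p was called higher at 1.01 (limma adjusted P-value 0.0106). The median tested miRNA stood at 0.67 there. The labelling spike-ins are control RNAs added to the sample RNA for labelling. When scaled to them, miR-3651 changed by -0.018 and miR-664b-3p by 0.19, neither called. In that setting miR-664b-5p was called at 1.15 and the median tested miRNA stood at 0.79. These settings differ from the main one in a factor per array, which a difference from the median tested miRNA largely removes. Likeness of that difference between the main setting, no scaling and the spike-ins was thus fixed in advance and is no separate result. Relative to the median tested miRNA, miR-3651 stood at -0.85, -0.82 without scaling, -0.81 with the spike-ins and -0.31 with normexp background correction, and miR-664b-3p at -0.64, -0.61, -0.59 and -0.18. A lower level of miR-3651 and miR-664b-3p was therefore measured only against the rest of the miRNA signal and not per cell or per amount of RNA. miR-664b-5p stood 0.32 above the median tested miRNA and, with normexp, at -0.056. Within row 1 of the slide, with 3 DMSO arrays and 1 UNC1999 array, the log2 differences were -1.01 for miR-3651, -0.58 for miR-664b-3p and 0.02 for miR-664b-5p. Within row 2, with 1 DMSO array and 3 UNC1999 arrays, they were -0.74, -0.74 and 0.76. The DMSO array of row 2 was that of replicate 3, on which miR-664b-5p was not detected.

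**Figure D5:**
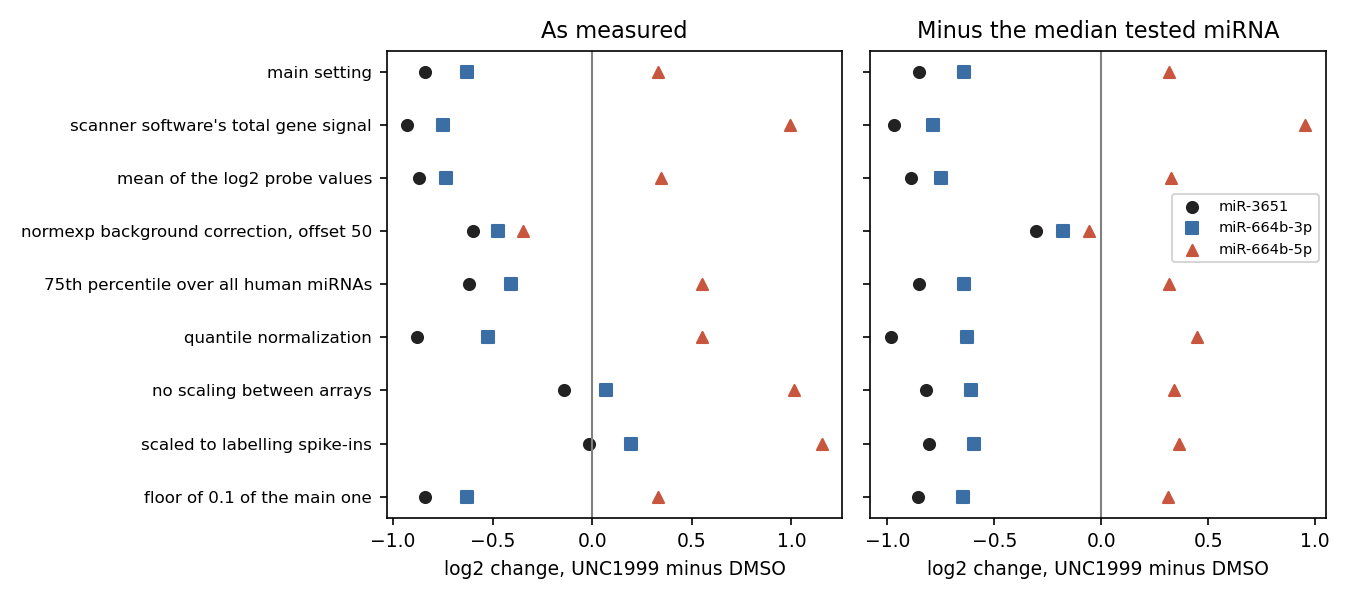
The log2 change of the 3 tested members, UNC1999 minus DMSO, under the main setting and 8 other ways to obtain or scale the signal, as measured in the left panel and minus the median tested miRNA of the same setting in the right. On the left, without scaling and with the spike-ins, miR-3651 lies nearer to 0 but below it, at -0.14 and -0.018, and miR-664b-3p lies above 0, at 0.067 and 0.19, while on the right both stay below 0 in every setting shown. A factor per array largely cancels on the right, so settings that differ from the main one in such a factor alone are alike there by construction.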

How the data were processed

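Total RNA (100 ng per sample) was labelled and hybridized to a human miRNA array based on miRBase. The authors deposited the scanner output of Agilent Feature Extraction 10.7.3.1, whose spot intensity values are background-subtracted but not yet normalized across arrays, with detection and outlier marks (other columns of 0 or 1). A table of log2 values for 2042 features, deposited as processed by the authors, served as an alternative. No columns of fold changes or P-values were used.

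Outlier spots (1392 to 2292 per array) were left out, spots of a probe averaged and probes summed. Each array was scaled to its 75th percentile over the 346 human miRNAs with a detection mark on all 8 arrays, and values were then floored at 8.98 (the lowest detected scaled signal per array, median over arrays) before log2. A floor understates changes of dim miRNAs. For the 456 miRNAs detected on all 4 arrays of a group, limma 3.58.1 (lmFit, eBayes; R 4.3.3) was used with no block. Single values were compared by exact permutation tests. The steps were tested on simulated data.

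The named miRNAs are all members, the miRNAs on snoRNA genes, and for each member detected on all arrays the 3 with the nearest profiles. The members and lists were chosen with earlier results of these data known. The alternatives were the scanner software's sum per miRNA, the mean of log2 probe values, normexp with an offset of 50 on the median spot signal, other scalings, floors, filters, variance models and blocks, the authors' processed values, other thresholds, the methods' paired test and leaving out each array. Leaving out DMSO replicates 2 and 3 together, ratios to miR-664b-5p and values within slide rows were added after seeing the data. The number of arrays limits the precision.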

Additional observations from a re-analysis of the deposited data

How the results depend on the processing

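The count of members called was 2 and that of all miRNAs on snoRNA genes 2, both lower, under the main setting. Without scaling between arrays each count was 1, and with the spike-ins 1, the member called then being miR-664b-5p, as higher. The detection filter favours a rise of that member, so its calls as higher are a description. In these settings miR-664b-3p stood at 0.067 and 0.19 on the log2 scale. miR-664b-5p stood at -0.35, called lower, with normexp background correction and at -0.064 without DMSO replicates 2 and 3. It was called higher at 0.55 when all human miRNAs set the 75th percentile, and stood at 2.28, not called, in the authors' processed values. The higher and lower calls over all miRNAs were 164 and 158, against 54 and 230 with normexp, 192 and 88 with the percentile over every human miRNA, 234 and 4 without scaling and 299 and 7 with the spike-ins. Of the 456 tested miRNAs 322 were called, and 152 by the methods' paired test after Benjamini-Hochberg adjustment. With no filter on detection 195 of all 2549 human miRNAs were called. In that setting 3 of the 7 members were called, all lower, among them an entry that had not passed the filter. On leaving out single arrays, between 292 and 326 of all miRNAs and 2 or 3 members were called. miR-3651 ranged from -0.87 to -0.79 and miR-664b-3p from -0.68 to -0.59, each called every time. The difference in their ratio ranged from -0.27 to -0.14, where 3 against 4 arrays cannot reach a P-value below 0.057. Beyond scaling, the cause of these shifts was not tested. Pairing by replicate number was not visible in the signal. The correlations between the deviations of arrays of the same number were 0.179, 0.273, -0.415 and -0.392. Of 4 DMSO arrays 1 was most like the UNC1999 array of its number. These values cannot show whether samples of the same number were made together. With the replicate number as a block 308 miRNAs and 2 members were called, and paired within numbers the ratio of miR-3651 to miR-664b-3p differed by -0.21 (exact sign-flip permutation test, P-value 0.25, of 0.125 at the least).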
